A study of Mus musculus with 18 samples.

Results

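The genes described here encode the enzymes of de novo lipogenesis, the synthesis of fatty acids from sugar-derived carbon, and the main factors that set their transcription in the liver. They were chosen by name as Acly, Acaca, Acacb, Fasn, Elovl6, Scd1, Me1, Srebf1, Mlxipl and Thrsp, and each name matched 1 gene, so that 10 of the 55385 genes in the deposited tables are covered. Polyadenylated RNA from whole liver was sequenced in 18 libraries, in 3 groups of 6, with 3 males and 3 females in each group and ages of 17.1 to 18 weeks. Wild-type C57BL/6J animals were the reference for 2 engineered genotypes, Dp16 and Dp16-2xIFNRs, and the labels name no treatment. Dp16 mice carry an extra copy, in all cells, of a segment of mouse chromosome 16 that is homologous to much of human chromosome 21, and serve as a model of trisomy 21. In Dp16-2xIFNRs mice the cluster of interferon receptor genes within that segment is returned to the wild-type dosage while the rest of the segment remains in excess. None of the 10 genes lies on chromosome 16: they lie on chromosomes 3, 5, 7, 9, 11 and 19.

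In de novo lipogenesis, citrate exported from mitochondria is split to acetyl-CoA, which is carboxylated to malonyl-CoA and built into palmitate by fatty acid synthase. Palmitate is then elongated and desaturated before it enters triglycerides and phospholipids, and the reducing power comes as NADPH. In the liver the pathway is induced by feeding: insulin acts largely through SREBP-1c, a product of Srebf1, and glucose through ChREBP, the product of Mlxipl. The labels give neither the feeding state nor the time of day at which the livers were taken.

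The sequences upstream of 4 of the genes are shown because their transcripts behaved differently in what follows: over the libraries Fasn, Acly and Mlxipl had r of 0.805 to 0.889 with each other in log2 CPM, and Thrsp -0.176 to 0.0955 with them. This order did not hold once group, sex and the length trend of each library, described further on, were removed: Fasn then had r of 0.858 with Thrsp and 0.308 with Mlxipl. Each is the 250 bases before an annotated start, 5′ to 3′ on the strand of the gene, from RefSeq on GRCm38.p6. The RefSeq table of promoters held 13 starts for 9 of the 10 genes, with none for Scd1. Capitals mark 4 motifs, searched on both strands, so that a match on the opposite strand shows as the reverse complement. The E-box, the core of the elements bound by ChREBP and the USF factors, was searched as CACGTG. The sterol regulatory element, bound by SREBP, was searched as TCACNCCAC, with N for any base. The box bound by NF-Y was searched as CCAAT, and the GC box bound by Sp1 as GGGCGG.
Fasn, chr11:120824548-120824797, minus strand: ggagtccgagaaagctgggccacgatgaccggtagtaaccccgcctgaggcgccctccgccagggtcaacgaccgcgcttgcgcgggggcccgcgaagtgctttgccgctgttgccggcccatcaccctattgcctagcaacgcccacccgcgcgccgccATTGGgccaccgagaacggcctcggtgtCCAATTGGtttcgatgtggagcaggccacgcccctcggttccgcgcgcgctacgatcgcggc
Acly, chr11:100528001-100528250, minus strand: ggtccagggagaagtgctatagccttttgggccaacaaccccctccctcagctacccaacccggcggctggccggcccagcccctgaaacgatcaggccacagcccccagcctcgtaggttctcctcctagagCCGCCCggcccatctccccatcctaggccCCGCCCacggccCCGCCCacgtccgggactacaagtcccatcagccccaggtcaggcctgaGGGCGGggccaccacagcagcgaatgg
Mlxipl, upstream start, chr5:135089640-135089889, plus strand: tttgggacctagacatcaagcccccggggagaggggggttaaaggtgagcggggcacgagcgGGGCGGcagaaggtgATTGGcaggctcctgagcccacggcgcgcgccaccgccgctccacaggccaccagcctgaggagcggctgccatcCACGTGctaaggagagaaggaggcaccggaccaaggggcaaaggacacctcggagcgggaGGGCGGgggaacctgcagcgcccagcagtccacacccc
Mlxipl, internal start, chr5:135106641-135106890, plus strand: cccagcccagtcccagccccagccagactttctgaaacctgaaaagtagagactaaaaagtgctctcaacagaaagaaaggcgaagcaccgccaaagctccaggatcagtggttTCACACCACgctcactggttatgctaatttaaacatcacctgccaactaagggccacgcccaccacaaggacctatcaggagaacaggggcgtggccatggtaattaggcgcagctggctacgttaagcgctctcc
Thrsp, chr7:97417551-97417800, minus strand: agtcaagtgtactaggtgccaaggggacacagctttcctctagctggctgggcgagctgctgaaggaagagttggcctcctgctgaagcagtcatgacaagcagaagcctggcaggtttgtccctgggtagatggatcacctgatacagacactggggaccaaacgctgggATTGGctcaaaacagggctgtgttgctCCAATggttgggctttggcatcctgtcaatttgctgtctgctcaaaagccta
The E-box and the sterol regulatory element were each found in 1 of the 13 windows, which cover 9 genes, and in both cases the gene was Mlxipl. There the E-box lay 98 to 93 bases before the upstream start and the sterol element 136 to 128 bases before the internal start. Among 32851 promoter windows of the same length over all genes, 6.02% held the E-box letters and 1.05% the sterol element letters. CCAAT was found in 7 of the 13 windows, those of Acacb, Fasn, Me1, Mlxipl, Srebf1 and Thrsp, against 33.8% of all windows. GGGCGG was found in 5 of the 13, of Acly, Me1, Mlxipl and Srebf1, against 32.7%. Some genes had more than 1 window. In the Fasn window 2 of the CCAAT matches overlap, on opposite strands. A match is a description of letters and was not tested for binding. Only exact letters within 250 bases were searched, so a window without a match does not show that the gene lacks the element. The only windows of Acaca and Acacb lie inside the annotated gene, past its first start.

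Total counts ran from 38236222 to 59923315 per library, and the 10 genes together took 0.548% to 3.36% of them, most of it Scd1 (0.445% to 2.43%). Ifnar1, a receptor gene of the cluster, measured 19.8 to 25.5 CPM among wild-type livers, 26.0 to 42.4 among Dp16 livers, and 18.3 to 26.9 among Dp16-2xIFNRs livers, so that the Dp16 libraries lay above every wild-type library. CPM is the count as a share of the library total, corrected by the library's TMM factor. Of the 6 Dp16 libraries, library 4, a male, and library 5, a female, stood apart from the others, with the lowest and the highest TMM factor of all 18 (0.803 and 1.34). They also held the most negative and the most positive trend of expression with gene length, a slope of -0.38 and 0.42 in log2 CPM per doubling of length after each gene's mean was removed. Both had the lowest age of the series, 17.1 weeks, as had wild-type library 6. Hepatocyte markers were high in every library (summed level 78210 to 136500 CPM over the 7 with data). Of the 8 adipocyte markers, Lep had 0 counts, Adipoq 17, Plin1 21 and Retn 46 over all 18 libraries. Slc2a4 had 2596, Cfd 3355, Lipe 8237 and Fabp4 10908, and the 8 together measured 17.7 to 49.5 CPM. A single library held 13 of the Adipoq and 15 of the Plin1 counts at most. The 5 striated muscle markers summed to 0 to 14.25 CPM among wild-type livers (median 0.009756). In Dp16 livers they summed to 0, and in Dp16-2xIFNRs livers to at most 0.1965 CPM. Carry-over of other tissue was not tested.

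Compared per kilobase of gene length, the transcripts spanned a wide range in wild-type livers. On the RPKM scale, Scd1, the delta-9 desaturase that makes oleate and palmitoleate, was first with a mean of 2285 ± 723 (SD, n = 6), and Thrsp, a small acidic protein that promotes lipogenesis, followed with 602 ± 577. Next came a close pair, Me1 at 91.0 ± 26.0 and Acly at 88.4 ± 25.9, and then Fasn at 67.3 ± 28.4 and Srebf1 at 54.8 ± 17.3. Elovl6 (30.2 ± 18.3), Mlxipl (22.6 ± 11.6), Acacb (12.9 ± 6.25) and Acaca (8.67 ± 3.43) were lowest. Neighbours in this order overlapped in range in every case but Thrsp over Me1. Scd1 exceeded Thrsp in 6 of 6 wild-type libraries although the ranges touched, Me1 exceeded Acly in 3 of 6, and Elovl6 exceeded Mlxipl in 3 of 6. In Dp16-2xIFNRs livers Srebf1 stood above Fasn in all but 1 of the 6 libraries, with RPKM means of 41.9 ± 17.0 and 29.7 ± 13.5, while in wild-type livers Fasn stood above Srebf1 in 5 of 6.

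**Figure D1:**
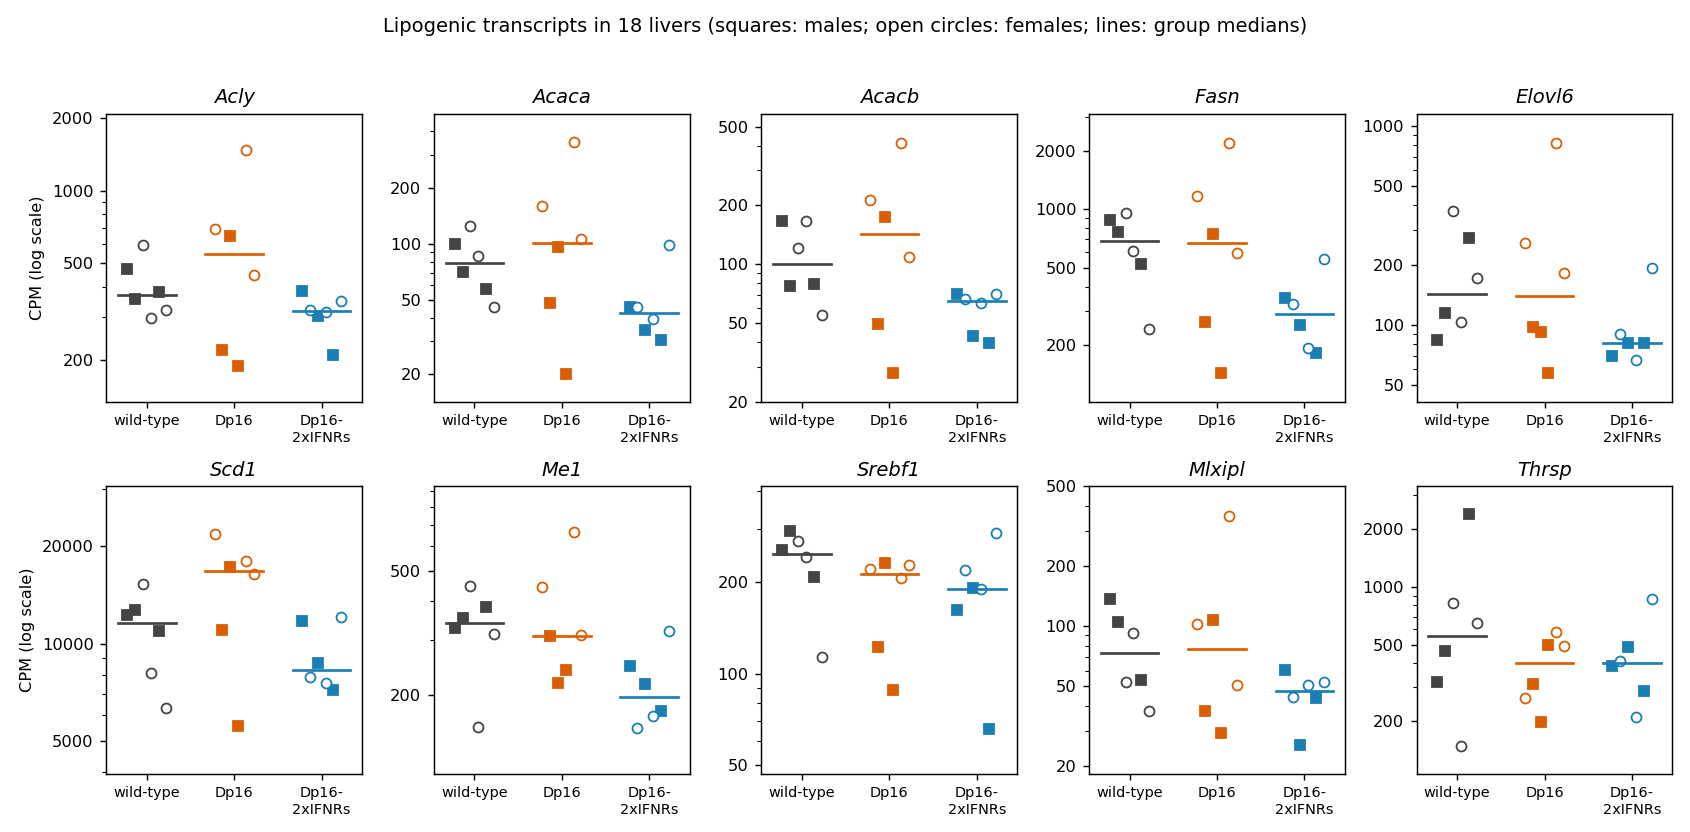
Level of each gene in each of the 18 livers (vertical axes: TMM-scaled CPM, log scale), by genotype, with males as squares, females as open circles and lines at group medians. Dp16 livers are the most scattered for most genes, as for Fasn (143 to 2203 CPM against 241 to 961 in wild-type), and the groups overlap for every gene.

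Acly, ATP-citrate lyase, which releases cytosolic acetyl-CoA from citrate, had a lowest, median and highest level of 298, 369 and 595 CPM among wild-type livers, 188, 549 and 1475 among Dp16 livers, and 209.5, 317 and 384 among Dp16-2xIFNRs livers. The highest value was Dp16 library 5 and the lowest Dp16 library 4, so that the Dp16 group enclosed both others. The fitted log2 difference of Dp16-2xIFNRs from Dp16 was -0.87 (SE 0.35, 95% interval -1.63 to -0.12), a ratio of 0.547.

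The carboxylases make malonyl-CoA: Acaca encodes the cytosolic enzyme that feeds synthesis, and Acacb the mitochondrial form whose product restrains fatty acid oxidation. Acaca measured 45.8, 78.5 and 125 CPM (lowest, median, highest) among wild-type livers, 20.0, 101 and 353 among Dp16 livers, and 30.6, 42.6 and 98.4 among Dp16-2xIFNRs livers. Acacb measured 55.0, 99.9 and 166 CPM among wild-type livers, 28.0, 142 and 413 among Dp16 livers, and 39.9, 65.1 and 70.5 among Dp16-2xIFNRs livers. Of the 6 Dp16-2xIFNRs livers, 4 lay below every wild-type liver for Acaca and 2 for Acacb, the others lay within the wild-type range, and for Acaca library 6, a female, held the top value of its group. Against Dp16 the fitted log2 difference was -1.24 for Acaca (SE 0.42, interval -2.13 to -0.35) and -1.35 for Acacb (SE 0.44, interval -2.29 to -0.42), ratios of 0.424 and 0.392. Against wild-type it was -0.81 for Acaca (interval -1.69 to 0.069) and -0.94 for Acacb (interval -1.86 to -0.022). Reads of Gm11437, a gene on the opposite strand within Acaca, amounted to 6.8% of the Acaca count, and the sources used here do not say whether the counting used strand.

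Fasn, which builds palmitate from malonyl-CoA, had a lowest, median and highest level of 241, 686 and 961 CPM among wild-type livers, 143, 669 and 2203 among Dp16 livers, and 182, 289 and 556 among Dp16-2xIFNRs livers. The medians of wild-type and Dp16 were nearly equal, and all 6 Dp16-2xIFNRs livers lay below the wild-type median, although 4 of them lay within the wild-type range. The fitted log2 difference of Dp16-2xIFNRs was -1.18 from wild-type (SE 0.47, interval -2.18 to -0.17), a ratio of 0.442, and -1.32 from Dp16 (SE 0.47, interval -2.34 to -0.31), a ratio of 0.399. Dp16 and wild-type differed by 0.15 (interval -0.88 to 1.17).

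Elovl6, the elongase that takes palmitate to stearate, measured 84.1, 143 and 372 CPM among wild-type livers, 57.7, 139.5 and 816 among Dp16 livers, and 67.1, 81.3 and 193 among Dp16-2xIFNRs livers. The top value of Dp16 and that of Dp16-2xIFNRs each came from 1 female far above the rest of its group. Its fitted log2 difference in Dp16-2xIFNRs was -0.97 from wild-type (SE 0.45) and -1.07 from Dp16 (SE 0.47). Scd1 measured 6310, 11580 and 15320 CPM among wild-type livers, 5542, 16820 and 21880 among Dp16 livers, and 7208, 8303 and 12060 among Dp16-2xIFNRs livers. For Scd1, 4 of the 6 Dp16 livers exceeded every wild-type liver while library 4 lay below all of them. The fitted log2 difference of Scd1 in Dp16-2xIFNRs was -0.69 from Dp16 (SE 0.27, ratio 0.620) and -0.26 from wild-type (SE 0.27). Scd1 has close paralogs, and the sources used here do not say how reads shared between genes were counted.

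Me1, cytosolic malic enzyme, supplies NADPH to fatty acid synthesis. Its lowest, median and highest levels were 157, 339.5 and 445.5 CPM among wild-type livers, 218, 309 and 665 among Dp16 livers, and 156, 196 and 321 among Dp16-2xIFNRs livers. In all 6 Dp16-2xIFNRs livers Me1 was below the wild-type median. The fitted log2 difference of Dp16-2xIFNRs was -0.63 from wild-type (SE 0.27) and -0.73 from Dp16 (SE 0.27), ratios of 0.648 and 0.604.

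Of the regulators, Srebf1 encodes the SREBP-1 transcription factors, which activate most genes of the pathway after proteolytic release from the membrane. It measured 114, 249 and 296 CPM among wild-type livers, 88.3, 214 and 231 among Dp16 livers, and 65.5, 191 and 291 among Dp16-2xIFNRs livers. All 6 Dp16 livers lay below the wild-type median, and the top of the range was similar in wild-type and Dp16-2xIFNRs livers. Its fitted log2 difference was -0.39 in Dp16 (SE 0.29) and -0.37 in Dp16-2xIFNRs (SE 0.29) against wild-type, and 0.017 between the 2 engineered genotypes (interval -0.61 to 0.64). The table counts all Srebf1 transcripts together, so the isoforms SREBP-1a and SREBP-1c were not told apart.

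Mlxipl, the carbohydrate-responsive factor, measured 37.6, 73.2 and 137.5 CPM among wild-type livers, 29.2, 76.6 and 357 among Dp16 livers, and 25.6, 47.5 and 60.1 among Dp16-2xIFNRs livers. Its spread was 12.3-fold from lowest to highest among Dp16 livers and 2.35-fold among Dp16-2xIFNRs livers. The fitted log2 difference of Dp16-2xIFNRs from Dp16 was -1.23 (SE 0.49, ratio 0.427), and from wild-type -0.84 (SE 0.48). Thrsp, a target of thyroid hormone, SREBP-1c and ChREBP, measured 149, 557 and 2375 CPM among wild-type livers, 197, 402 and 584 among Dp16 livers, and 211, 399.8 and 866 among Dp16-2xIFNRs livers. The wild-type top value, library 5, a male, was far above all other livers, and the other 5 wild-type livers overlapped both engineered groups. Its fitted log2 difference was -1.01 in Dp16 (SE 0.51) and -0.84 in Dp16-2xIFNRs (SE 0.51) against wild-type, and without wild-type library 5 these became -0.26 and -0.079.

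The first comparison asks what the extra chromosome segment does, Dp16 against wild-type. The 10 genes did not share a direction: 8 had a fitted difference above 0, from 0.10 (Me1 and Elovl6) to 0.49 (Acly), and Srebf1 and Thrsp lay below 0, where 48.6% of all genes did. None passed an adjusted p under 0.05 with the edgeR quasi-likelihood test, where 0.0395% of the 15208 genes tested did, and each had an adjusted p of 0.999. At an unadjusted p under 0.05 there were 0 of the 10, against 4.87% of all genes, and the DESeq2 Wald test also called 0 of them. The median difference of the 10 was 0.27, beside 0.010 over all genes tested. Without Dp16 library 5 the fitted differences of Fasn, Elovl6, Me1 and Mlxipl turned to -0.24, -0.48, -0.12 and -0.27.

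Dp16-2xIFNRs against Dp16 asks what changes when the receptor cluster is returned to wild-type dosage on the Dp16 background, and Dp16-2xIFNRs against wild-type asks what the rest of the segment does with the receptors at that dosage. These 2 comparisons share the Dp16-2xIFNRs libraries, and each shares its reference with the first comparison, so their values are given side by side. Against Dp16, 8 of the 10 genes had a fitted difference below 0 (51.9% of all genes did), with a median of -0.97 beside -0.022 over all genes, and the exceptions were Srebf1 and Thrsp. Against wild-type all 10 lay below 0 (52.6% of all genes did), with a median of -0.82 beside -0.025, from Scd1 at -0.26 to Fasn at -1.18. None was called in either comparison with the edgeR quasi-likelihood test at an adjusted p under 0.05, where 0% of genes against Dp16 and 0.0986% against wild-type were called, nor did DESeq2 or limma-voom call any. The edgeR adjusted p-values were 0.532 against Dp16 for each of those 8 genes, and 0.510 (Fasn) to 0.777 (Scd1) against wild-type. At an unadjusted p under 0.05 the count was 8 of 10 lower against Dp16, where 7.11% of all genes were lower by that rule, and 4 of 10 lower against wild-type (Fasn, Me1, Acacb and Elovl6), where 5.23% were. In 8 of the 10 genes every Dp16-2xIFNRs liver lay below the Dp16 mean, which held for 16.6% of all genes. Of these 8, Elovl6 and Me1 had 5 of 6 livers below the Dp16 median, and the others had all 6. In 5 of the 10 every one lay below the wild-type mean, against 13.6% of all genes. Without Dp16 library 5 the 8 lower genes against Dp16 became 4, and the differences of Elovl6 and Mlxipl shrank to -0.48 and -0.50. Without Dp16 library 4 the lowest adjusted p among the 10 was 0.0663 by the same edgeR test, for Acaca, Acacb and Scd1. In whole liver, fewer cells of a type and less RNA per cell cannot be told apart.

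**Figure D2:**
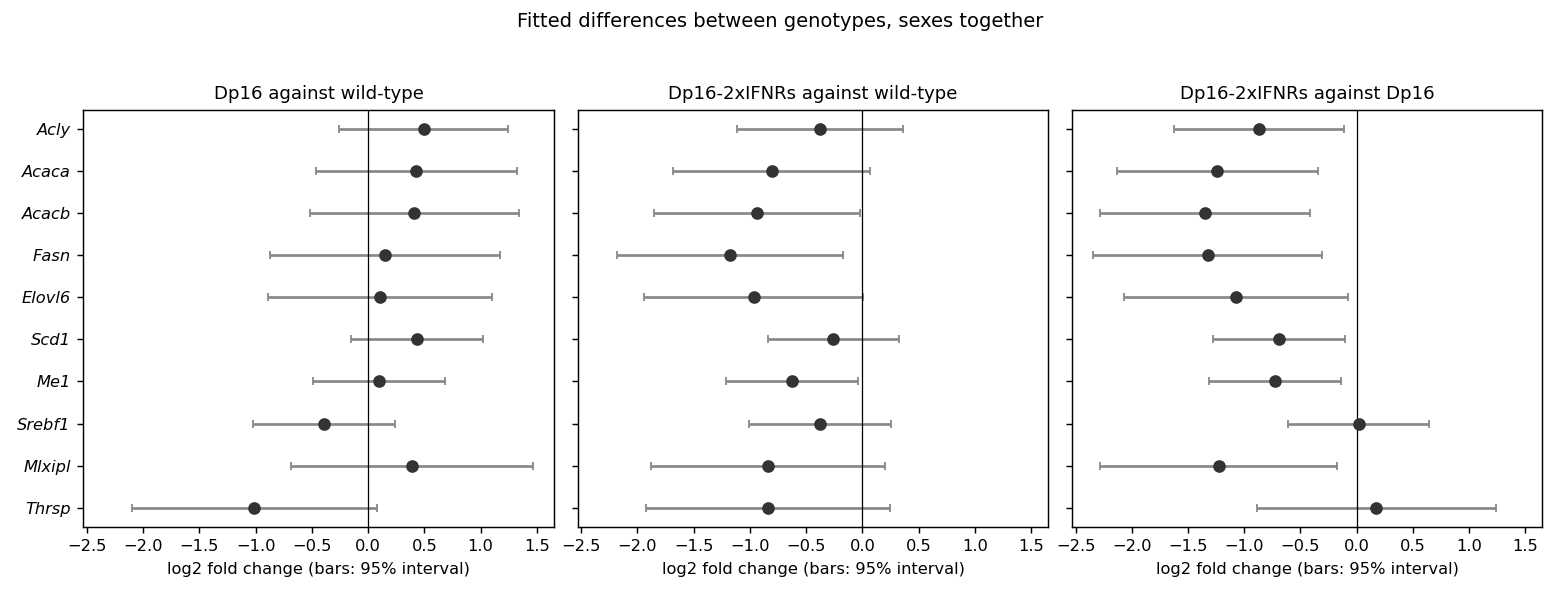
Fitted log2 fold change of each gene (horizontal axis) in the 3 genotype comparisons, sexes together, as points with 95% intervals. In the right panel 8 of 10 intervals lie below 0, with Srebf1 (0.017) and Thrsp (0.17) at or near it, and in the left panel every interval includes 0.

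Within Dp16, females measured higher than males for several of the genes. Every Dp16 female exceeded every Dp16 male for Acaca (106 to 353 CPM against 20.0 to 96.4), Elovl6 (181 to 816 against 57.7 to 97.7) and Me1 (310 to 665 against 218 to 308). That made 3 of the 10 genes, where 9.22% of all genes showed it. No gene of the 10 separated the sexes in wild-type or in Dp16-2xIFNRs livers, where 7.88% and 9.67% of all genes had every female above every male. Over all 3 genotypes, Elovl6 was 2.16-fold (interval 1.22 to 3.83) and Acaca 1.91-fold (interval 1.15 to 3.18) higher in females by the fit, with edgeR adjusted p-values of 0.099 and 0.127, so that neither passed, beside 6.56% of all genes that did. The DESeq2 Wald test called both, with adjusted p-values of 0.0233 and 0.0410, while it called 1535 genes in all. Elovl6 and Acaca were the 2 of 10 at an unadjusted p under 0.05 with edgeR, where 9.44% of genes were higher in females by that rule. With edgeR, Elovl6 passed without wild-type library 5 (adjusted p = 0.0338), and Acaca passed with each library's length trend as an offset (adjusted p = 0.0344). Over all genes, 788 to 1116 passed with 1 library left out, and 1342 with the offset.

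The effect of Dp16 was then fitted within each sex. In males all 10 differences from wild-type were below 0 (50.2% of all genes were), from Scd1 at -0.083 and Acly at -0.20 to Fasn at -0.91, Elovl6 at -0.93 and Thrsp at -1.65. In females 1 of the 10 was below 0 (48% of all genes were), Thrsp at -0.28. The other 9 were above 0, with Mlxipl at 1.48, Acaca at 1.27, Fasn at 1.13, Acly and Acacb at 1.11, Elovl6 at 0.96, Scd1 at 0.92, Me1 at 0.63 and Srebf1 at 0.060. The difference between the sexes, tested as an interaction, was 2.25 for Mlxipl (SE 0.86), 2.05 for Fasn (SE 0.84), 1.89 for Elovl6 (SE 0.81), 1.74 for Acaca (SE 0.75) and 1.11 for Me1 (SE 0.50). Acacb (1.46), Thrsp (1.37) and Acly (1.30) had larger differences than Me1 with larger errors. The first 5 named were the 5 of 10 at an unadjusted p under 0.05, where 3.18% of all genes were higher by that rule, and their adjusted p of 0.582 in the edgeR test was shared by 8 of the 10 genes. The interaction called 0% of genes, so none of the 10. Without Dp16 library 5, a female, the 5 became 0, and the interaction of Mlxipl was 1.08. For Dp16-2xIFNRs the same interaction ran from 0.13 (Acly) to 1.02 (Srebf1) and 1.32 (Thrsp), with 0 of 10 at an unadjusted p under 0.05 against 2.24% of all genes. Between Dp16-2xIFNRs and Dp16, 9 of the 10 genes had a fitted difference below 0 in males (55.2% of all genes did) and 8 in females (51.5%). These 8 were below 0 in both sexes and farther from 0 in females: Fasn was at -1.89 in females and -0.55 in males, Elovl6 at -1.84 and -0.094, and Mlxipl at -1.79 and -0.42. Srebf1 was at 0.094 in females and -0.078 in males, and Thrsp at 0.15 and 0.20. The difference between these pairs of values was not tested. The female values include Dp16 library 5, the highest of the Dp16 livers for Fasn, Elovl6 and Mlxipl (2203, 816 and 357 CPM), and were not refitted without it. Likewise the male values, here and against wild-type, include Dp16 library 4, the lowest Dp16 liver for those genes (143, 57.7 and 29.2 CPM). The male values were not refitted without library 4.

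**Figure D3:**
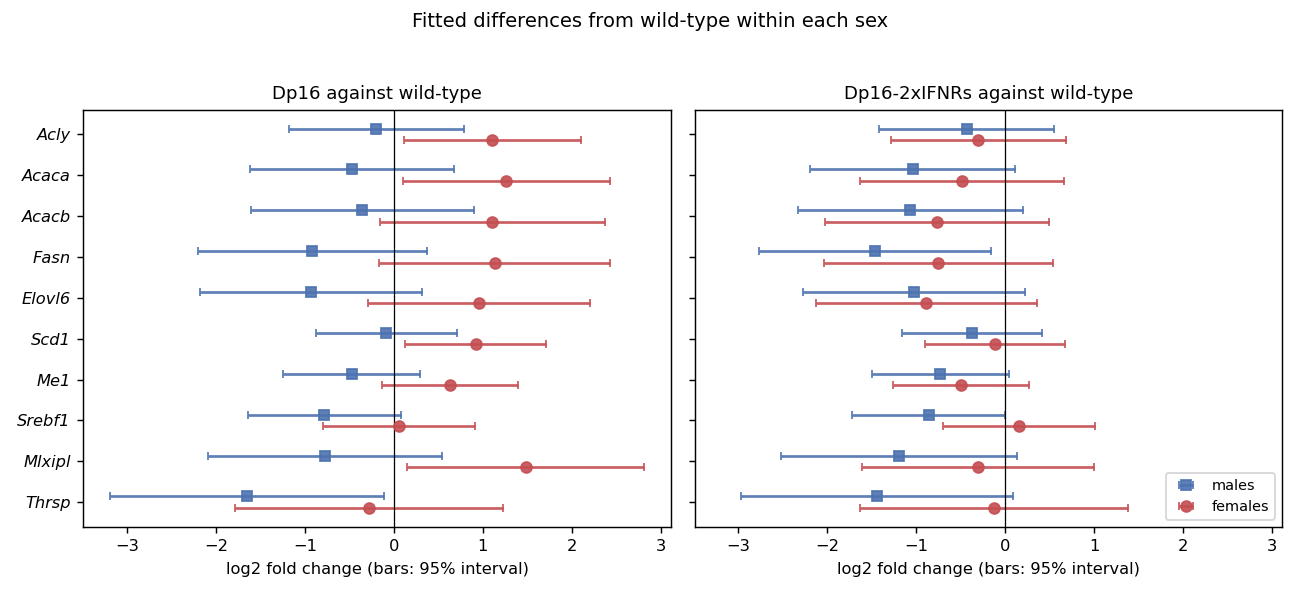
Fitted log2 fold change from wild-type (horizontal axis) within males (squares) and females (circles), with 95% intervals, for Dp16 at left and Dp16-2xIFNRs at right. For Dp16 the male values are all below 0 and the female values above 0 except Thrsp (-0.28), and for Dp16-2xIFNRs Srebf1 is at -0.86 in males and 0.15 in females, and Thrsp at -1.44 and -0.13.

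Across the 18 livers most of the genes varied together. Acaca and Fasn were the closest pair, with a Pearson r of 0.959 and a Spearman rho of 0.932 on log2 CPM. The 10 pairs among Acly, Acaca, Acacb, Fasn and Mlxipl had r from 0.805 to 0.959, while all 45 pairs ran from -0.176 to 0.959 with a median of 0.656. Thrsp was the gene least tied to the others, with r from -0.176 (Mlxipl) to 0.53 (Me1). These are descriptions over libraries that share their depth and processing. No test was made here, since the genes were chosen as parts of 1 pathway, and the same limit holds for the pairs with Srebf1 tested next. After group and sex means and each library's length trend were removed, the 10 pairs among Acly, Acaca, Acacb, Fasn and Mlxipl ran from 0.308 (Fasn and Mlxipl) to 0.916 (Acaca and Fasn), and the Thrsp pairs from 0.342 to 0.872.

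**Figure D4:**
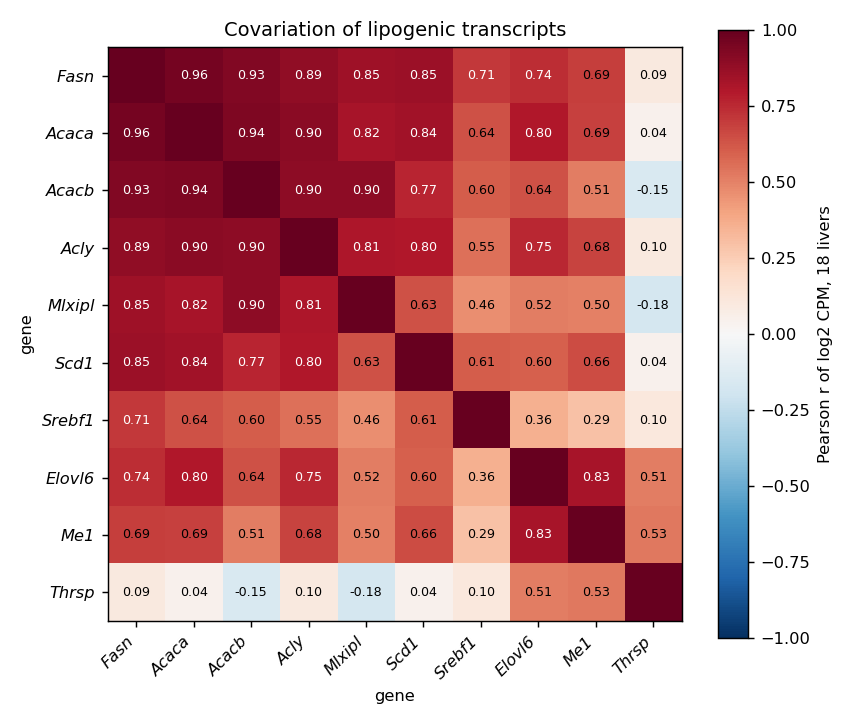
Pearson r of log2 CPM over 18 livers for each pair of genes (rows and columns), coloured from -1 (blue) to 1 (red). The upper left block of Fasn, Acaca, Acacb, Acly and Mlxipl holds r of 0.805 to 0.959, and the Thrsp row holds the lowest values.

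The level of Srebf1 was set against each of the other 9 genes, which were chosen as parts of the same pathway. The permutations took no account of genotype, sex or length trend, and the share of all genes related to Srebf1 was not counted. The p-values here therefore do not set these relations apart from those with other genes. Fasn had the strongest relation, with r = 0.708 and rho = 0.748 (permutation p = 0.00072 and 0.00051, adjusted over the 9 relations 0.00648 and 0.00459). Acaca (r = 0.639), Scd1 (0.607), Acacb (0.605) and Acly (0.549) also had an adjusted permutation p under 0.05 for Pearson's r, at 0.0172 for the first 3 and 0.0383 for Acly, with rho of 0.699, 0.616, 0.637 and 0.515. Mlxipl (r = 0.461), Elovl6 (0.358), Me1 (0.29) and Thrsp (0.102) did not pass by r, and Mlxipl passed by rho (0.606, adjusted permutation p = 0.0155). Without the 2 livers farthest from the Srebf1 median, Dp16-2xIFNRs library 5 and Dp16 library 4, r with Fasn was 0.583 and none of the 9 passed. The calls therefore depend on keeping those livers. Leaving them out also narrows the range of Srebf1, so this does not tell whether the relations themselves rest on them. Within groups of 6, r of Srebf1 with Fasn was 0.956 among wild-type livers, 0.845 among Dp16 livers, and 0.713 among Dp16-2xIFNRs livers, and with Scd1 0.833, 0.951 and 0.523. With Thrsp it was -0.219, -0.288 and 0.567. With group and sex removed over the 18 livers, r of Srebf1 was 0.736 with Scd1, 0.718 with Fasn, 0.643 with Acaca, 0.549 with Acly and 0.59 with Acacb. With each library's length trend removed as well, r was 0.528 with Scd1, 0.437 with Fasn, 0.251 with Acaca, 0.169 with Acly and -0.0233 with Acacb.

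The levels of most of these genes also moved with the length trend of the library. The slope ran from -0.21 to 0.24 among wild-type livers, from -0.38 to 0.42 among Dp16 livers, and from -0.25 to -0.053 among Dp16-2xIFNRs livers, all 6 of which were below 0. Its correlation over the 18 livers was highest for Acacb (r = 0.942, rho = 0.903), Mlxipl (0.899, 0.816), Fasn (0.872, 0.899) and Acaca (0.87, 0.856), each with an adjusted permutation p of 3.33e-05 to 0.00014. For Acacb, Mlxipl and Fasn the unadjusted permutation p for r was 1e-05, the smallest that the permutations can give. Without Dp16 libraries 4 and 5, r was 0.902, 0.866, 0.782 and 0.766 in the same order. The relation was weaker for Acly (0.783), Scd1 (0.75) and Srebf1 (0.612), and r was not past the threshold for Elovl6 (0.449, adjusted permutation p = 0.0761), Me1 (0.402, 0.108) and Thrsp (-0.353, 0.151). For Elovl6 rho was 0.503 and passed (adjusted permutation p = 0.0444). Thrsp is the shortest of the 10 genes at 1277 bases of transcript, and Fasn (10050), Acaca (9513) and Acacb (8788) are the longest. Between them lie Elovl6 (6134), Scd1 (4832), Acly (4610), Srebf1 (4299), Mlxipl (3622) and Me1 (3608). Mlxipl and Me1 are thus close in length, with r of 0.899 and 0.402. The slope is fitted over all genes on their length, these genes included, so it is not independent of their levels. How many other genes, or genes of like length, correlate with it was not counted. The permutation p-values therefore do not set these genes apart from others. With each library's length trend as an offset in the fit (an alternative chosen after seeing the data), the difference of Dp16-2xIFNRs from Dp16 became -0.65 for Fasn, -0.61 for Acaca, -0.72 for Acacb, -0.59 for Acly and -0.45 for Scd1, and was -1.06 for Mlxipl and -0.62 for Me1. The count at an unadjusted p under 0.05 then went from 8 to 5. Fasn in Dp16-2xIFNRs against wild-type was then at -0.81, and in Dp16 against wild-type at -0.16. What part the length trend has in these differences was not tested further.

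**Figure D5:**
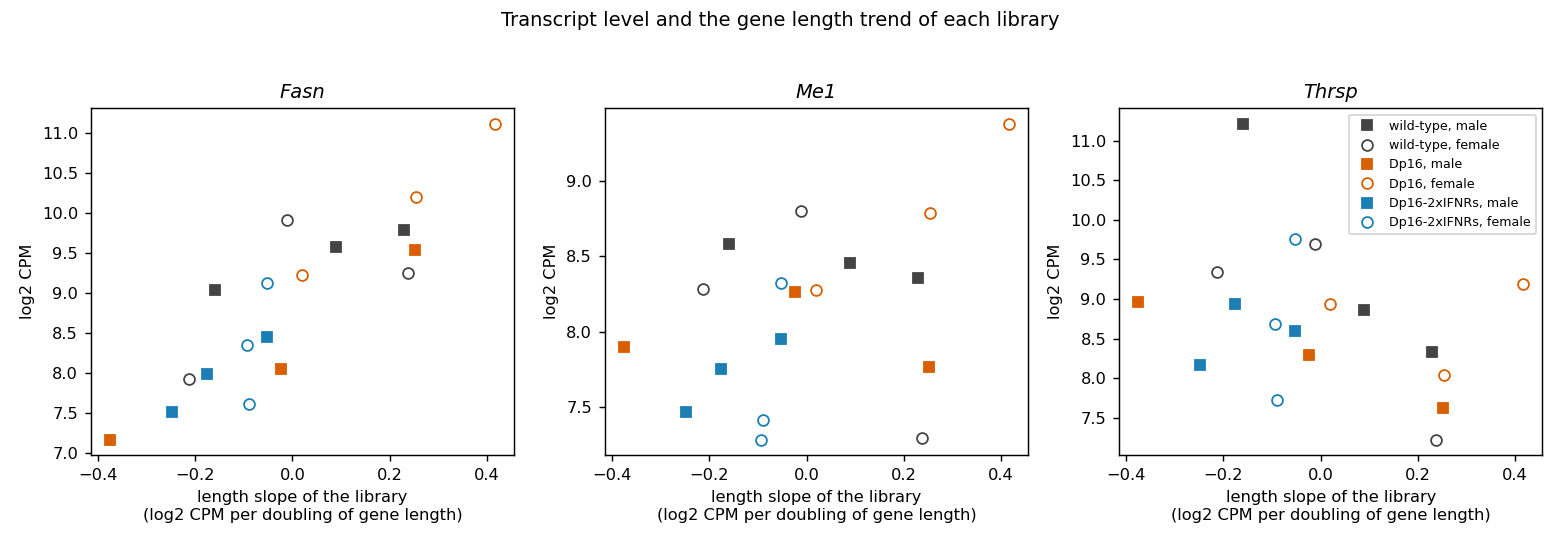
Level of Fasn, Me1 and Thrsp in each of the 18 libraries (vertical axes, log2 CPM) against the library's slope of expression with gene length (horizontal axes), with genotype by colour, males as squares and females as open circles. Fasn climbs with the slope (r = 0.872), Me1 follows it less (r = 0.402), and Thrsp runs weakly the other way (r = -0.353).

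The genes that feed or surround the pathway were read from fixed lists, and none of them was called in a genotype comparison with the edgeR quasi-likelihood test. Among 10 genes of glucose and fructose entry, 2 were lower in Dp16-2xIFNRs than in wild-type at an unadjusted p under 0.05 (5.23% of all genes were): Slc2a2, the hepatic glucose transporter, at -0.70 (adjusted p = 0.379), and Tkfc, which phosphorylates glyceraldehyde from fructose, at -0.60 (adjusted p = 0.482). Among 13 genes of citrate and NADPH supply, G6pdx, the first enzyme of the pentose phosphate pathway and the other large source of NADPH beside Me1, differed most, at 1.31 in Dp16 against wild-type (edgeR adjusted p = 0.28) and -1.11 in Dp16-2xIFNRs against Dp16 (adjusted p = 0.532). Of 15 further lipogenic and desaturation genes, Mid1ip1, a paralog of Thrsp whose product activates acetyl-CoA carboxylase, was at -0.70 in Dp16 against wild-type and 0.40 in Dp16-2xIFNRs against Dp16. That list had a median of -0.17 against Dp16, smaller than the -0.97 of the 10 genes described here.

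Downstream, Lpin1 and Lpin2, phosphatidate phosphatases of triglyceride synthesis, were at -2.03 and -0.92 in Dp16-2xIFNRs against Dp16 (edgeR adjusted p = 0.532 each), and 3 of the 9 genes of that list were lower at an unadjusted p under 0.05, where 7.11% of all genes were. Of 19 other regulators, Mlxip, the paralog of Mlxipl, was at -1.09 against Dp16, and Usf2, an E-box binding factor, was at -0.45 in both engineered genotypes against wild-type. In the list of insulin signalling, 6 of 15 genes were lower against Dp16 by that rule, beside the same 7.11%, with Foxo1 at -0.91 and Mtor at -0.80. Of 12 genes of the fasting response, Igfbp1, which insulin represses, was at 1.23 in Dp16 and 1.52 in Dp16-2xIFNRs against wild-type (edgeR adjusted p = 0.381 and 0.117). Ppargc1a, a coactivator of fasting metabolism, was at 0.79 in Dp16 against wild-type and -0.79 in Dp16-2xIFNRs against Dp16. The 7 LXR targets outside lipogenesis were all below 0 in Dp16-2xIFNRs against wild-type (52.6% of all genes were) and against Dp16 (51.9%), comparisons that share the Dp16-2xIFNRs libraries, with Mylip at -0.50 and -0.48. In each genotype 3 of 16 clock genes were lower than in wild-type at an unadjusted p under 0.05, where 2.35% of all genes were in Dp16 and 5.23% in Dp16-2xIFNRs, including Per2 (-1.51 in Dp16 and -1.06 in Dp16-2xIFNRs).

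Between the sexes, 11 of the 115 genes tested from these lists were higher in females (3.16% of all genes were) and 6 were lower (3.41%), at an adjusted p under 0.05 with edgeR. Among those higher in females, G6pdx differed by 1.18 on the log2 scale, with an edgeR adjusted p of 0.0105, as were the LXR targets Pltp (0.79, adjusted p = 0.00352) and Mylip (0.52, adjusted p = 0.0374), Usf2 (0.40, adjusted p = 0.0251) and Ppargc1a (0.67, adjusted p = 0.0446). The 6 lower in females, named because they were called, were Elovl3, an elongase of very long fatty acids (-7.71, adjusted p = 1.97e-08, means of 3.38 CPM in females and 608 in males), Elovl1 (-0.47), Agpat2, an acyltransferase of triglyceride synthesis (-0.65), Nr0b2 (adjusted p = 0.0173), Insig2, which holds SREBP in the endoplasmic reticulum (-0.93), and Cidec, a lipid droplet protein (-1.89).

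Markers of other cell types were set beside these values. Erythroid markers measured above wild-type, with a median of 1.51 in Dp16 and 2.07 in Dp16-2xIFNRs over 6 genes and 5 of the 6 at an unadjusted p under 0.05 in the latter (3.43% of all genes were higher by that rule), though none was called. The summed level of these markers ran from 50.5 to 188 CPM among wild-type livers, 13.3 to 413 among Dp16 livers, and 90.4 to 323 among Dp16-2xIFNRs livers. Hepatocyte markers had a median difference of 0.30 in Dp16-2xIFNRs against Dp16, opposite in sign to most of the lipogenic genes. The 6 Kupffer cell markers summed to 194 to 444, 190 to 279.7 and 184 to 255 CPM in the same order of groups, with none called. Their median was -0.12 in Dp16 against wild-type, with 5 of 6 below 0 (48.6% of all genes were). In Dp16-2xIFNRs all 6 were below 0, with a median of -0.17 against wild-type (52.6% of all genes were) and -0.039 against Dp16 (51.9%). The medians of the stellate cell markers had the signs of most of the lipogenic genes in Dp16 against wild-type and in Dp16-2xIFNRs against Dp16. In Dp16-2xIFNRs against wild-type their median was 0.24, opposite in sign to the lipogenic genes (-0.82), with 1 of the 6 markers below 0. All 6 were above 0 in Dp16 against wild-type, with a median of 0.49 and 3 at an unadjusted p under 0.05 (2.52% of all genes were higher by that rule), and 5 of 6 were below 0 in Dp16-2xIFNRs against Dp16, with a median of -0.35 and none at that threshold. Their summed level was 137 to 231, 195 to 340 and 175.5 to 280 CPM in wild-type, Dp16 and Dp16-2xIFNRs livers. The 5 endothelial markers summed to 112 to 162, 123 to 193 and 118 to 167 CPM, with none called. Against wild-type their median was 0.17 in Dp16, with 2 of 5 below 0, and -0.14 in Dp16-2xIFNRs, with 3 of 5 below 0. In Dp16-2xIFNRs against Dp16 it was -0.13, with 4 of 5 below 0. Against wild-type Lyve1 was at 0.97 in Dp16 and 0.87 in Dp16-2xIFNRs, and Stab2 at 0.24 and -0.66. In Dp16-2xIFNRs against Dp16 Lyve1 was at -0.10 and Stab2 at -0.90. The part of these cell types in the lipogenic differences was not tested.

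Genes whose level followed the 10 most closely were ranked by the Pearson r of their log2 CPM with the mean standardised level of the 10, over 18 libraries and 6981 well-expressed genes, as a description chosen by that value. Pklr, liver pyruvate kinase, came first at r = 0.955, and Tkfc, the fructose enzyme, second at 0.915. With group, sex and length trend removed they still had r of 0.891 and 0.889. Pklr ranged from 129.9 to 929.7 CPM over the livers. The next 6 were Hook3, Tsc22d2, Ubr2, Pi4k2b, Cul4a and Snrk, with r from 0.869 to 0.891, falling to 0.646 to 0.74 once group, sex and length trend were removed. The genes that ran most opposite were Ggact (-0.918), Cth, the cystathionine lyase of cysteine synthesis (-0.907), Mfsd4b3-ps (-0.906) and Ndufv3, a subunit of respiratory complex I (-0.906).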

How the data were processed

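The data are a table of whole-number counts per gene and a table of RPKM, both deposited by the authors, for 18 liver libraries with separate sex and age in the labels. Per the labels' protocols the libraries were poly-A selected, strand-specific and paired-end. The build is GRCm38, and HTSeq 0.6.1, SAMtools 1.5, HISAT2 2.1.0, FastQC 0.11.5 and bcl2fastq are listed without roles in the submitters' processing notes, with no strand setting. The authors' RPKM values equal the counts divided by gene length and by the column total, as checked on the tables. They serve only to compare genes within a group.

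Counts were filtered with filterByExpr by group (15208 genes), scaled with TMM and tested with edgeR 4.0.16 (R 4.3.3), quasi-likelihood, robust, with group and sex as terms and all 18 libraries in 1 fit, and group by sex for interactions. P-values were adjusted by Benjamini-Hochberg over all 15208 genes and called under 0.05. Standard errors were derived from the F statistic and intervals are 95%. Log2 CPM used a prior count of 2. Correlations used 100000 permutations. The length slope regresses a library's log2 CPM, less each gene's mean, on log2 gene length. The edgeR fit was checked on simulated counts for Dp16 against wild-type, and the other steps were not checked in this way. The labels do not say that libraries are separate animals in words, so p-values measure the spread between these libraries. The description label of each library holds a number whose meaning the sources used here do not give. It takes 12 values, of which 5 are shared by libraries of different genotypes (11 libraries), so that some libraries may not be independent, and it was tried as a random block. Depth was 38236222 to 59923315 counts per library, and the median biological coefficient of variation was 0.351.

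The text names the 10 genes. From each further list it takes up to 4 genes called by genotype, or the 2 with the smallest p as values. The genes most like the 10 are the 8 highest and 4 lowest by r among genes averaging 3 or more in log2 CPM, predicted names left out. The 10 genes and the lists were chosen with earlier results of these data known. Gene positions come from GENCODE M21 (GRCm38) and promoters from RefSeq (GRCm38.p6). Alternatives were DESeq2 1.42.0, limma 3.58.1 (voom, and log2 RPKM with 0.1 or 1 added), other size factors, filters, terms, blocks and samples. A gene length offset was chosen after seeing the data.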

Additional observations from a re-analysis of the deposited data

Results flagged for a closer look

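Of 30 groups of 6 libraries (10 genes in 3 genotypes), 5 held a value that stood apart from the other 5. For independent, normally distributed values chance gives about 1 in 20. The rule was applied to CPM without logs, and each of the 5 values was the highest of its group, so that rate is no reference here. The share of all genes with such a value was not counted, so no excess in these genes is shown. These groups are not independent: 2 of the 5 values come from Dp16 library 5 and 2 from Dp16-2xIFNRs library 6. Elovl6 measured 815.7 CPM in Dp16 library 5, a female, against 57.7 to 259 in the other Dp16 livers, and Mlxipl measured 357.4 CPM in the same library against 29.2 to 107. In Dp16-2xIFNRs library 6, also a female, Acaca measured 98.37 CPM against 30.6 to 46.0, and Elovl6 measured 193.2 CPM against 67.1 to 89.9. Thrsp measured 2375 CPM in wild-type library 5, a male, against 149 to 826 in the other wild-type livers.

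For Me1, every Dp16 female lay above the wild-type female mean and every Dp16 male below the wild-type male mean. The fitted difference was larger in females by 1.11 on the log2 scale (interaction 1.105, unadjusted p = 0.0403, adjusted p = 0.582 with the edgeR quasi-likelihood test), which does not pass. Without Dp16 library 5 it was 0.76.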

How the results depend on the processing

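The lack of a call among the 10 genes in the 3 genotype comparisons and both interactions held under every alternative run, with a lowest adjusted p of 0.0663 for a genotype comparison. Of 1780 values of single genes under an alternative, 66 changed direction and 8 passed the threshold, all 8 between the sexes. Values below are log2 differences, and counts are of the 10 genes. Where they change, the cause was not tested.

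Between the sexes 0 genes were called, against 2 with DESeq2 (Elovl6 and Acaca), 4 with the replicate block and 1 with the length offset (Acaca). Over all genes the calls were 998 of 15208, and 1535, 1281 and 1342 under those alternatives in the same order. The share of all genes at an unadjusted p under 0.05 was counted for the main fits only. At an unadjusted p under 0.05, Dp16 against wild-type went from 0 to 1 without the sex term, with age or with the first 3 digits of the description number as a term, and to 2 in males only, 5 in females only and 2 without Dp16 libraries 4 and 5. For Dp16-2xIFNRs against Dp16 it went from 8 to 5 with limma-voom, 0 in males only and 5 with the length offset. For Dp16-2xIFNRs against wild-type it went from 4 to 2 with limma-voom, 2 with no low count filter, 2 without the sex term, 0 in females only and 1 with limma on RPKM plus 0.1 or plus 1. The sexes went from 2 to 5 with the replicate block and 4 with the description number as a random block, the sex by Dp16 interaction from 5 to 3 with the length offset, and sex by Dp16-2xIFNRs from 0 to 1 with limma-voom. The 5 of 9 relations with Srebf1 became 0 without the 2 farthest libraries and 0 within each genotype (n = 6).

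Direction changed for small differences. In Dp16 against wild-type Fasn became -0.041 with limma-voom, -0.12 with the replicate block, -0.043 with the random block and -0.16 with the length offset. Elovl6 became -0.093 with age as a term, -0.00449 with the random block, -0.33 without Dp16 libraries 4 and 5 and -0.19 with the length offset. Me1 became -0.024 with the random block and -0.051 without libraries 4 and 5, and Mlxipl -0.080 without them. In males only, Acly became -0.18, Acaca -0.45, Acacb -0.34, Fasn -0.89, Elovl6 -0.91, Scd1 -0.065, Me1 -0.46 and Mlxipl -0.75, and in females only Srebf1 became 0.056, and 0.15 for Dp16-2xIFNRs against wild-type. In Dp16-2xIFNRs against Dp16, Srebf1 became -0.014 (limma-voom), -0.00324 (no low count filter), -0.16 (age), -0.048 (random block), -0.091 (males only), -0.13 (without libraries 4 and 5) and -0.13 (RPKM plus 0.1, and plus 1), and Thrsp became -0.12 with the length offset. Between the sexes Thrsp became 0.092 (RPKM plus 0.1, and plus 1) and 0.17 (length offset), and Mlxipl -0.17 without libraries 4 and 5. The r of Srebf1 with Thrsp became -0.29 within Dp16 and -0.22 within wild-type, and with Elovl6 -0.13 within wild-type.

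Leaving out 1 library at a time gave counts at an unadjusted p under 0.05 of 0 to 2 (Dp16 against wild-type), 1 to 6 (Dp16-2xIFNRs against wild-type), 4 to 8 (against Dp16), 2 to 5 (sexes, with 0 to 1 called), 0 to 8 (sex by Dp16) and 0 to 1 (sex by Dp16-2xIFNRs). Ranges that cross 0 were, for Dp16 against wild-type, Fasn -0.24 to 0.43, Elovl6 -0.48 to 0.45, Me1 -0.12 to 0.22 and Mlxipl -0.27 to 0.66. For Dp16-2xIFNRs against Dp16 they were Srebf1 -0.12 to 0.19 and Thrsp -0.20 to 0.34, and for the sexes Mlxipl -0.052 to 0.51 and Thrsp -0.29 to 0.41. For sex by Dp16 it was Thrsp, -0.052 to 1.81. For sex by Dp16-2xIFNRs they were Acly -0.068 to 0.51, Acacb -0.16 to 0.68, Elovl6 -0.52 to 0.78, Me1 -0.17 to 0.60 and Thrsp -0.11 to 1.75.

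Over all genes the 6 calls in Dp16 against wild-type became 72 with DESeq2 and 1 with only the groups compared, the 15 in Dp16-2xIFNRs against wild-type 127 and 43, the 0 against Dp16 7 with DESeq2, and the 998 between the sexes 1535. With the description number as a random block (consensus correlation 0.407), the 6 became 16 and the 15 became 68. Equal replicate numbers did not pair the libraries: of 18 pairs 8 correlated over 0.1 (range -0.449 to 0.342), and 5 of 18 libraries correlated best with their own number, so that the replicate block is a check only.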
